A study of Mus musculus with 9 samples.

Results

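The MiT transcription factors, the folliculin complex that controls them, the Rag GTPases that bring them to the lysosome and their target Gpnmb were followed in mouse adult fibroblasts exposed to DPI. These were 9 genes, taken by symbol from a count table of 53465 gene IDs, and all 9 were among the 14088 genes with enough counts to be tested. The set was chosen by the measured counts of Gpnmb, which were much lower at 72 h than in controls, so its 72 h values are given as a description, with no test. For the other 8 genes the comparison of 72 h with control is likewise described without p-values.

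RNA was sequenced from 9 libraries of cultured cells labelled as MAFs, 3 from each of 3 groups: Control, DPI for 24 h and DPI for 72 h. The labels do not spell out DPI. It is read below as diphenyleneiodonium, which blocks enzymes that carry a flavin, because the series is about the flavin cofactor of respiratory complex I. The labels give no strain, passage, dose or vehicle, nor the time at which controls were collected, so time in culture cannot be told apart from DPI in any comparison below. Nothing says that replicates were separate cultures, so p-values measure only how far these libraries differ, and that may be technical. In bulk RNA, fewer cells of a type and less RNA per cell cannot be told apart.

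MITF, TFEB and TFE3 are basic helix-loop-helix leucine zipper proteins that bind E-box sequences as dimers and switch on genes of lysosomes and autophagy. When amino acids are plentiful, Rag GTPase dimers on the lysosome recruit both mTORC1 and the MiT factors, which are phosphorylated and held in the cytoplasm. Folliculin, with FNIP1 or FNIP2, stimulates GTP hydrolysis by RagC and RagD and so sets whether the MiT factors are recruited. In starved cells or cells without folliculin the factors enter the nucleus, and GPNMB, a transmembrane glycoprotein of melanosomes, lysosomes and the cell surface, is among the genes they raise. This control acts on the proteins, which RNA counts do not measure.

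The MiT factors read E-boxes in promoters, so the 250 bases before the RefSeq start (GRCm38.p6) were searched on both strands in all 9 genes. The motif TCACGTG, or its reverse complement CACGTGA, lay in the windows of Fnip1 and Rragc and in none of those of the other 7 genes. It was present in 3.13% of all 32851 windows. Counted by gene, as for the 9, it was in 3.58% of 27025 genes, some of which have several windows. Both windows are shown 5′ to 3′ with the motif in capitals, and that of Gpnmb is shown beside them as the gene that changed most. At 24 h Fnip1 and Rragc rose, and so did Flcn, Fnip2 and Gpnmb, whose windows lack the motif. A relation between motif and change was not tested. The windows shown, of Fnip1, Rragc and Gpnmb, are all on the plus strand. The motif starts 75 bases before the start of Fnip1 and 112 bases before that of Rragc.
Fnip1, chr11:54437929-54438178: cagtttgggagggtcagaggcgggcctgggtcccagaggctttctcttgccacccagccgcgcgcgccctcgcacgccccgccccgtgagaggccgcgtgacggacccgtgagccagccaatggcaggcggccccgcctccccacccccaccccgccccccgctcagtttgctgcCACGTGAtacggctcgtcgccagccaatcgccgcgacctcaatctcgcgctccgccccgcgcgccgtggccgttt
Rragc, chr4:123917183-123917432: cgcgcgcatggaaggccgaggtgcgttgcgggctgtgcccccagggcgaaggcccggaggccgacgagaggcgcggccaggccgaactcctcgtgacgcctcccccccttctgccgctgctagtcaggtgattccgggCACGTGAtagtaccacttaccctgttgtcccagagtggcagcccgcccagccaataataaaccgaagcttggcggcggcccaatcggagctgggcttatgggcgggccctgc
Gpnmb, chr6:49036268-49036517: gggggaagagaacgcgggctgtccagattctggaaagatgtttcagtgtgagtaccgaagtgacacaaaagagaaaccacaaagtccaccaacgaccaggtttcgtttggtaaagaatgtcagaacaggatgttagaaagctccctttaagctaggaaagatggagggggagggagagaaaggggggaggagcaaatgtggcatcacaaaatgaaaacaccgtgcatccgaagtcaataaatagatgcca
The Gpnmb window holds no TCACGTG and no TCATGTG, the related motif of melanocyte promoters, on either strand. TCATGTG was in no window of the 9 genes, in 3.25% of all windows and in 3.72% of all genes. The shorter CACGTG, which lies within TCACGTG, was in the same 2 genes, in 6.02% of all windows and in 6.86% of all genes. The palindromic CLEAR element, which contains TCACGTG, was in none of the 9 genes, in 0.24% of all windows and in 0.27% of all genes. A match is a description of the letters in this window, not a bound site.

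Depth ranged from 15292736 to 17923656 counts per library. Control replicate 2 stood apart, at 44.2 on the second principal component against 14.2 and 18.0 in the other controls, with 5.67% of counts in ribosomal protein genes against 4.20% and 4.26%. Of 10 fibroblast markers 7 were tested, while Thy1, Lum and Fap had 2, 4 and 12 counts over all 9 libraries. The 7 tested all rose at 24 h, where 12.4% of all tested genes rose. The list summed to 5234 to 5416 CPM in controls, 9240 to 9664 at 24 h and 8487 to 9975 at 72 h. Nearly all of this came from Col1a1, Col1a2 and Vim. From 24 h to 72 h, 4 of the 7 fell and 1 rose, where 11.2% of all tested genes fell and 10.1% rose. Pdgfra averaged 8.62, 15.8 and 8.05 CPM in control, 24 h and 72 h libraries, and Pdgfrb 29.9, 56.3 and 31.9. Col3a1 and Dcn, though tested, were low, at 1.86, 5.89 and 2.41 CPM and 1.32, 3.52 and 1.12 CPM in the same order. CPM is the count per 1000000 counts of TMM-scaled depth. Gpnmb and Mitf are also high in macrophages, osteoclasts and melanocytes. The 13 macrophage and osteoclast markers summed to 7.29 to 10.1 CPM in controls, 8.46 to 10.5 at 24 h and 6.18 to 7.41 at 72 h, and Adgre1, Tyrobp, Aif1 and Ocstamp had 0 counts in every library. The 9 melanocyte markers summed to 0.895 to 1.33, 0.670 to 1.04 and 0.850 to 1.17 CPM, with Tyrp1, Slc45a2 and Sox10 at 0 counts throughout. Adipocyte markers summed to 38.2 to 48.8, 35.4 to 36.1 and 50.0 to 60.7 CPM, nearly all from Pparg, and endothelial, skeletal muscle and keratinocyte lists stayed under 7 CPM in every library. The part of these shifts in the results below was not tested.

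Levels of different genes were compared per kilobase of exons (CPM per kb). In controls Rragc was the most abundant of the 9, at 35.8 ± 0.490 CPM per kb (SD, n = 3). Fnip1 followed at 16.7 ± 2.40, Gpnmb at 14.9 ± 0.436, Tfe3 at 12.0 ± 0.309, Flcn at 11.3 ± 1.25 and Fnip2 at 5.82 ± 0.870 CPM per kb. Tfeb had 1.29 ± 0.339, Mitf 1.15 ± 0.0659 and Rragd 0.431 ± 0.0146 CPM per kb. The neighbours Fnip1 and Gpnmb, Tfe3 and Flcn, and Tfeb and Mitf overlapped between control libraries, so their order is not resolved. With the longest transcript as the length, Gpnmb (26.2) stood above Fnip1 (19.0) and Tfeb (3.12) further above Mitf (1.46).

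**Figure D1:**
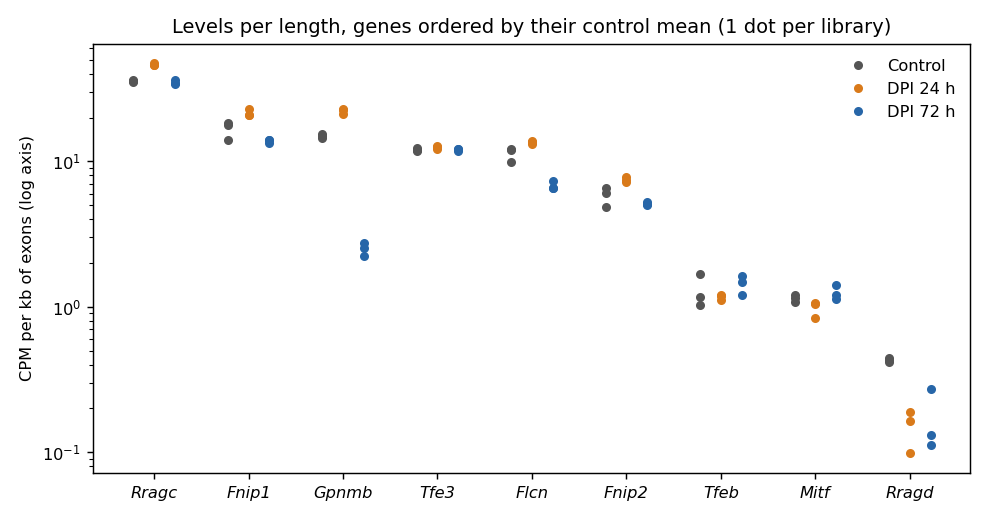
CPM per kb of exons on a log axis for the 9 genes, ordered by their control mean, with 1 dot per library and colours for control, DPI 24 h and DPI 72 h. Rragc is highest in all 9 libraries and Rragd lowest, and Gpnmb drops from about the level of Fnip1 in controls to between 2.23 and 2.76 at 72 h.

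Of the MiT factors themselves, Tfe3 supplied most of the transcripts, and no change passed the test for any of the 3 genes. Per kb of exons, Tfe3 made up 80.2% to 86.1% of the summed Mitf, Tfeb and Tfe3 level in every library, Tfeb 7.24% to 11.1% and Mitf 5.68% to 9.23%. These shares depend on the length used. With the longest transcript, Tfe3 exceeded Tfeb by 5.86 times on average in controls, beside 9.70 times per kb of exons. For Mitf the same ratios were 12.1 and 10.5. Tfec, the remaining member of the family, had 0 counts in all 9 libraries, which allows up to 0.196 CPM in the shallowest library (3 counts, counting error only).

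Tfe3 (chrX:7762560-7775202, GRCm38), the MiT factor most widely expressed across tissues, had 112, 114 and 108 CPM in controls, 112, 117 and 117 at 24 h and 110, 113 and 113 at 72 h. The 3 groups overlapped. The log2 change at 24 h was 0.05 ± 0.05 (SE, edgeR adjusted p = 0.52), with a 95% interval from -0.07 to 0.17, and that of 72 h against 24 h was -0.04 ± 0.05 (adjusted p = 0.63). These intervals are narrow, while those of the other 2 factors, counted 85 to 172 times per library, are not.

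Tfeb (chr17:47737030-47792419), the factor best known for lysosome biogenesis, had 5.85, 9.49 and 6.59 CPM in controls. It had 6.36, 6.88 and 6.77 CPM at 24 h and 8.44, 6.80 and 9.16 CPM at 72 h. Control replicate 2 was the highest of all 9 libraries, and the groups overlapped. The log2 change at 24 h was -0.13 ± 0.19 (SE, edgeR adjusted p = 0.66, 95% interval -0.56 to 0.29), and 0.10 without control replicate 2 (adjusted p = 0.70). From 24 h to 72 h it was 0.29 ± 0.19 (adjusted p = 0.35).

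Mitf (chr6:97807052-98021349), the factor of melanocytes and osteoclasts, had 7.18, 6.67 and 7.48 CPM in controls, 6.61, 5.18 and 6.43 at 24 h and 7.04, 7.48 and 8.71 at 72 h. The 24 h libraries lay below all others. The log2 change at 24 h was -0.23 ± 0.15 (SE, edgeR adjusted p = 0.31, 95% interval -0.56 to 0.11). That of 72 h against 24 h was 0.35 ± 0.15 (adjusted p = 0.13). Counts are per gene and do not separate the promoters and isoforms of Mitf.

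The folliculin complex genes rose modestly at 24 h, and all 3 were lower at 72 h than at 24 h. Flcn (chr11:59791408-59810016), the folliculin gene, had 42.7, 51.5 and 52.6 CPM in controls, 56.7, 59.8 and 59.0 at 24 h and 28.5, 28.2 and 31.6 at 72 h. All 24 h libraries were above and all 72 h libraries below every control. The log2 change at 24 h was 0.26 ± 0.09 (SE, edgeR adjusted p = 0.048), and at 72 h against control it was -0.73 ± 0.09, given without a test. Between 24 h and 72 h the level came down by 1.99-fold, with the log2 change at -0.99 ± 0.09 (SE, adjusted p = 1.96e-05 in edgeR). The 24 h rise was at the threshold. It lost its call without any of the 3 DPI 24 h libraries (adjusted p = 0.088, 0.145 and 0.139 without replicates 1, 2 and 3), any of the 3 DPI 72 h libraries (0.068, 0.068 and 0.060) or control replicate 1 (0.145). It was also lost under total count scaling (0.082) and with only the 6 libraries compared (0.087).

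Fnip1 (chr11:54438199-54518235), a folliculin-interacting protein and scaffold of the complex, had 126, 99.5 and 131 CPM in controls, 163, 148 and 148 at 24 h and 99.2, 94.5 and 99.1 at 72 h. The 24 h libraries were above all controls. The 72 h libraries lay below them, by a margin of under 1 CPM to control replicate 2. The log2 change was 0.36 ± 0.09 at 24 h (SE, edgeR adjusted p = 0.017) and -0.65 ± 0.10 at 72 h against 24 h (adjusted p = 7.13e-04). Against control it was -0.29 ± 0.10 at 72 h, given without a test. The 24 h call was lost without DPI 24 h replicate 1 (adjusted p = 0.075).

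Fnip2 (chr3:79455974-79567796), the paralogue of Fnip1, had 54.9, 40.7 and 50.5 CPM in controls. At 24 h it had 60.5, 61.8 and 65.3 CPM and at 72 h 44.3, 41.8 and 42.7. The 24 h libraries were above all controls, while the 72 h libraries lay within the control range. The log2 change was 0.36 ± 0.10 at 24 h (SE, edgeR adjusted p = 0.020) and -0.54 ± 0.10 at 72 h against 24 h (adjusted p = 0.0025). At 24 h it was not called without DPI 24 h replicate 2 (adjusted p = 0.055) or 3 (0.083), nor with only the 6 libraries compared (0.051). Control replicate 2 was the lowest control for both Fnip genes. Without it the 24 h changes were 0.25 for both and still passed, at an edgeR adjusted p = 0.0034 for Fnip1 and 0.0089 for Fnip2.

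The ratio of the Fnip genes overlapped between the groups. Per kb, Fnip1 exceeded Fnip2 by 2.70, 2.87 and 3.06 times in the controls, 3.17, 2.82 and 2.66 times at 24 h and 2.63, 2.66 and 2.73 times at 72 h.

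**Figure D2:**
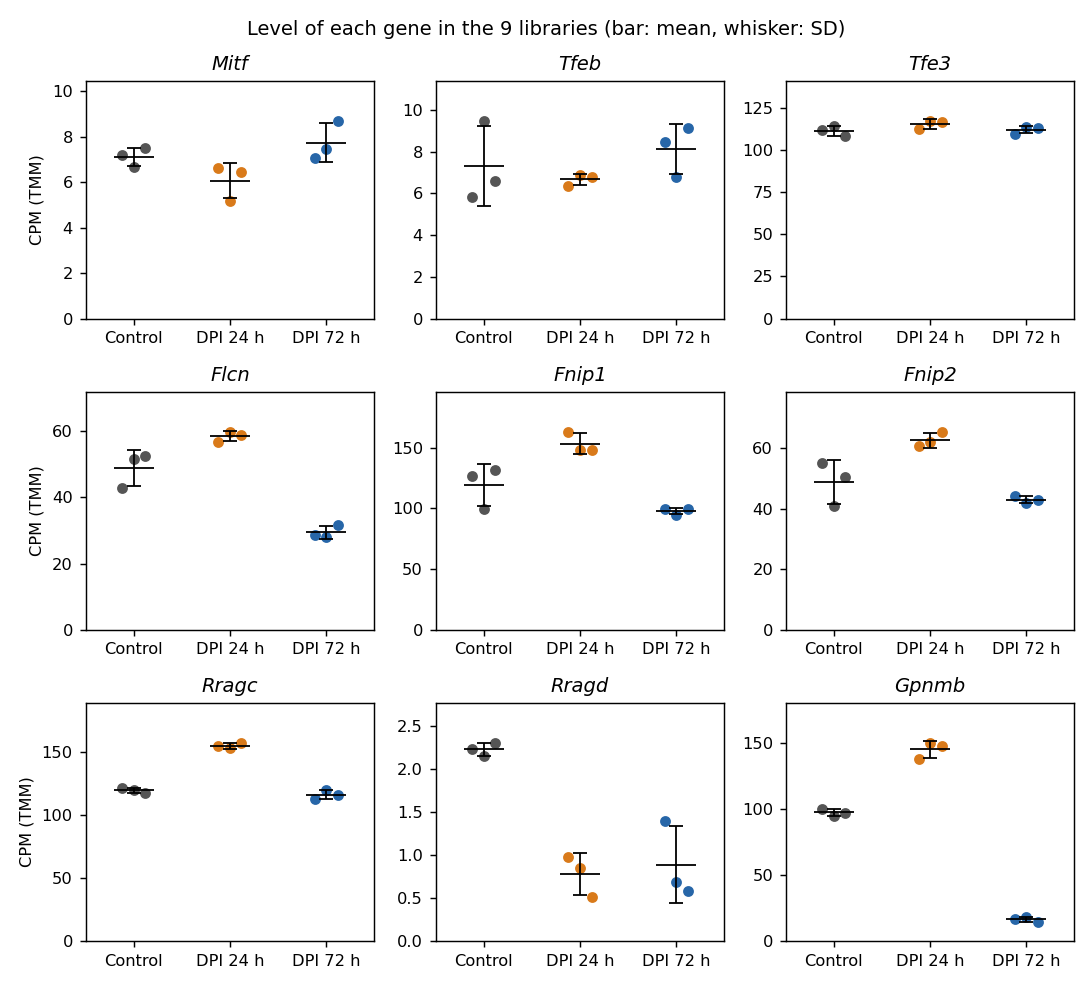
CPM of each of the 9 genes in the 9 libraries, with dots for libraries, a bar for the group mean and whiskers for the SD (n = 3), and each axis starting at 0. Flcn, Fnip1, Fnip2, Rragc and Gpnmb share a rise at 24 h. At 72 h Flcn, Gpnmb and, narrowly, Fnip1 lie below every control, while Fnip2 and Rragc overlap the controls. Tfe3 is level and Rragd is low at both times.

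The Rag genes that pair with RagA or RagB and respond to folliculin went opposite ways at 24 h. Rragc (chr4:123917446-123936997) had 121, 120 and 118 CPM in controls, 155, 153 and 157 at 24 h and 113, 120 and 116 at 72 h. The 24 h libraries stood clear of both other groups, which overlapped. The log2 change was 0.37 ± 0.05 at 24 h (SE, edgeR adjusted p = 5.18e-04), higher in 3 of 3 libraries, and -0.42 ± 0.05 at 72 h against 24 h (adjusted p = 2.65e-04). The change of 72 h against control was -0.04 ± 0.05, given without a test, with a 95% interval from -0.16 to 0.08. Exons of Rragc overlap those of 4930535I16Rik on the opposite strand, a gene with 0 counts in all 9 libraries.

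Rragd (chr4:32983037-33022180), the RagD gene and itself a known MiT target, was scarce, with 37, 39 and 36 counts in controls, 16, 14 and 9 at 24 h and 23, 11 and 9 at 72 h. That is 2.23, 2.15 and 2.30 CPM in controls, 0.979, 0.853 and 0.507 at 24 h and 1.40, 0.680 and 0.581 at 72 h. All treated libraries were below all controls. At 24 h the log2 change was -1.51 ± 0.41 (SE, edgeR adjusted p = 0.020), or 2.85-fold lower. This call was lost without DPI 24 h replicate 2 (adjusted p = 0.054), DPI 24 h replicate 3 (0.079) or control replicate 3 (0.051). The log2 change of 72 h against control was -1.32 ± 0.40, given without a test, and -1.81 without DPI 72 h replicate 1. No difference between 24 h and 72 h was detectable at this depth (0.19 ± 0.43, edgeR adjusted p = 0.81, 95% interval -0.75 to 1.14). All 3 control libraries and 2 of 3 in each treated group were over the minimum of the filter on low counts.

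Per kb, Rragc exceeded Rragd by 84.1, 86.1 and 79.3 times in the controls. The ratio was 245, 278 and 480 at 24 h and 125, 274 and 309 at 72 h, above every control in each treated library. The treated ratios rest on 9 to 23 Rragd counts each.

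Gpnmb (chr6:49036546-49070929), at a similar level to Fnip1 in controls, rose at 24 h and was the gene with the widest range. It had 1660, 1712 and 1515 counts in controls, 2252, 2459 and 2621 at 24 h and 273, 291 and 225 at 72 h. In CPM this is 100.1, 94.4 and 96.9 in controls, 138, 150 and 148 at 24 h and 16.6, 18.0 and 14.5 at 72 h. The 3 groups did not overlap. The log2 change at 24 h was 0.58 ± 0.07 (SE, edgeR adjusted p = 2.28e-04), a level 1.49-fold that of controls, higher in 3 of 3 libraries. The same controls entered the contrast by which the gene was picked. Across all alternatives run its 24 h adjusted p lay between 1.08e-11 and 0.0024.

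At 72 h Gpnmb stood at 16.4 ± 1.74 CPM (SD, n = 3) against 97.1 ± 2.84 in controls and 145 ± 6.45 at 24 h. This is 5.93-fold below control (log2 change -2.57 ± 0.08, SE) and 8.86-fold below 24 h (-3.15 ± 0.08). These values chose the gene and carry no test. Of the 14088 genes tested, 50 had a lower log2 change at 72 h against control, and 20 of those had a mean of at least 5 CPM.

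At 24 h, 6 of the 9 genes passed at an edgeR adjusted p under 0.05, 5 higher and 1 lower, where 24.7% of all tested genes passed, 12.4% higher and 12.3% lower. The median log2 change of the 9 was 0.26, beside -0.01 over all tested genes. With single libraries left out the count was 3 without DPI 24 h replicate 2 or 3, and otherwise 4 to 6. Between 24 h and 72 h, 4 of the 8 genes other than Gpnmb passed, all lower (Flcn, Fnip1, Fnip2 and Rragc), where 21.3% of all tested genes passed, 11.2% lower. These 4 passed under every alternative run. At 72 h against control, the contrast used for the choice, 2 of the 9 were past the same threshold (Gpnmb and Flcn, both lower), where 8.56% of all genes were. Nothing is read from this count. That count was 4 without control replicate 2.

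Groups did not overlap for 7 of the 9 genes at 24 h, where 40.5% of all tested genes did not overlap. The same held for 4 of 9 at 72 h against control (27.1% of all) and for 6 of 9 at 72 h against 24 h (46.2% of all). Both 72 h counts include Gpnmb, whose low 72 h values chose it, so its place in them is no result. The 6 also include Mitf, which was higher at 72 h than at 24 h and did not pass. The 24 h and 72 h comparisons share their control libraries.

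**Figure D3:**
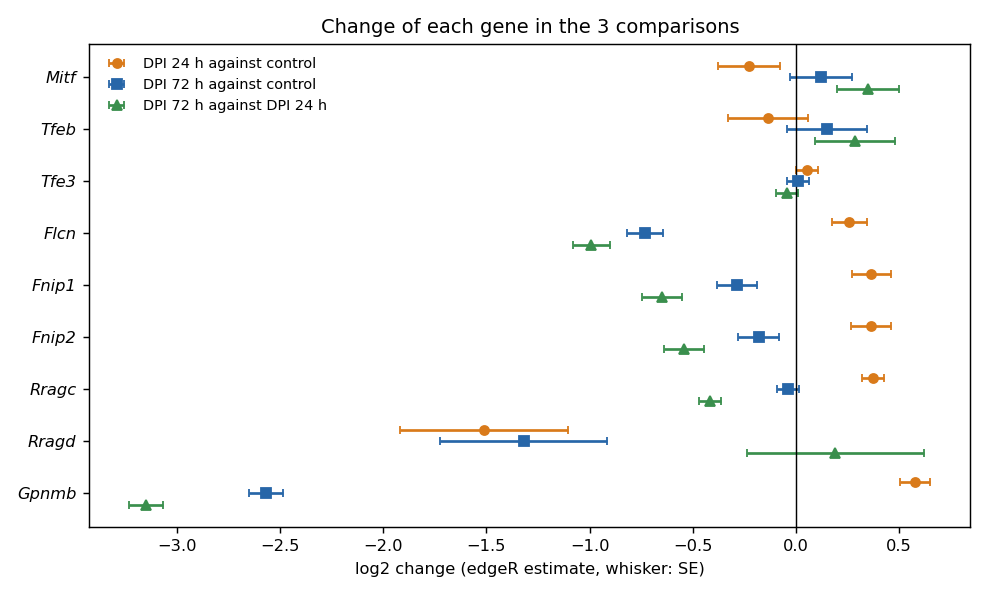
Log2 change of each gene with its SE in the 3 comparisons (circle, 24 h against control; square, 72 h against control; triangle, 72 h against 24 h). For Flcn, the Fnip genes, Rragc and Gpnmb the circle lies right of 0 and the triangle left of it, while for Mitf, Tfeb and Tfe3 all points lie within 0.35 of 0.

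Genes that MiT factors are known to act on were counted in 4 lists, with the 9 genes left out of each. Over all tested genes 12.4% rose and 12.3% fell at 24 h. Of 17 V-ATPase subunit genes tested, which encode the proton pump of lysosomes, 7 rose and 0 fell. Of 21 lysosomal hydrolases and activators 9 rose and 3 fell, of 12 lysosomal membrane proteins 6 rose and 2 fell, and of 12 autophagy genes 4 rose and 1 fell. List medians of the log2 change were 0.15, 0.18, 0.28 and 0.09 in that order, beside -0.01 over all genes. The V-ATPase count moved with single libraries. It was 2 without DPI 24 h replicate 1 or 3, 3 without control replicate 1 or 3, 4 without DPI 24 h replicate 2 or any DPI 72 h library, and 11 without control replicate 2. In addition 1 V-ATPase gene fell without control replicate 1, and 2 autophagy genes without control replicate 1 or 2. The number of V-ATPase genes that rose was also 4 under total count scaling, 4 with a block for replicate number and 3 with only the 6 libraries compared.

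The called genes that changed most in each list at 24 h were as follows. Ctns, the lysosomal cystine exporter, went from 15.9 ± 2.97 to 28.1 ± 1.42 CPM (SD, n = 3). Its log2 change was 0.83 ± 0.13 (SE, adjusted p = 9.99e-04 in edgeR). Slc36a1, a proton-coupled amino acid transporter of the lysosome, rose by 0.64 and the tetraspanin gene Cd63 by 0.49 on the log2 scale. Atg9b and Uvrag, both of autophagosome formation, rose by 0.83 and 0.50, and the glucuronidase gene Gusb by 0.46. The pump genes Atp6v0a2, Atp6v0b and Atp6v1a rose by 0.34, 0.31 and 0.31. In the other direction, the carboxypeptidase gene Scpep1 fell by 0.49 and Sqstm1, the p62 autophagy receptor, by 0.49.

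From 24 h to 72 h, genes of all 4 lists fell, where 11.2% of all tested genes fell and 10.1% rose. Lower lysosomal genes at 72 h were already known from an earlier look at these data. The same 72 h libraries enter this comparison, so its counts and adjusted p for these lists are a description. V-ATPase genes were lower in 14 of 17 and higher in 0, hydrolases and activators in 13 of 21 and 0, membrane proteins in 8 of 12 and 1, and autophagy genes in 6 of 12 and 0. The medians were -0.50, -0.60, -0.60 and -0.28, beside 0.00 over all genes. Gla, the alpha-galactosidase, went from 30.1 ± 1.06 at 24 h to 13.2 ± 0.497 CPM (SD, n = 3) at 72 h. Its log2 change was -1.19 ± 0.08 (SE, adjusted p = 1.97e-06 in edgeR). Ctns changed by -1.27, Slc36a1 by -1.06, Atp6ap2, an accessory protein of the pump, by -1.04, the protease genes Ctsa and Tpp1 by -0.95 and -0.87. Atg9b changed by -1.54, Map1lc3b, the LC3B gene of autophagosome membranes, by -0.62 and Uvrag by -0.59. Cd63, Atp6v0b and Tcirg1 changed by -0.82, -0.84 and -0.82.

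In the comparison of 72 h with control, where lower lysosomal genes were already known from an earlier look at these data, 9 of 17 V-ATPase genes, 13 of 21 hydrolases and activators, 6 of 12 membrane proteins and 3 of 12 autophagy genes were called lower and 0 of each higher. Over all tested genes 3.83% were called lower and 4.73% higher. The list medians were -0.35, -0.31, -0.35 and -0.11. Lamp1 and Lamp2, the main lysosomal membrane glycoproteins, had log2 changes of -0.51 and -0.50, the pump genes Atp6ap2 and Tcirg1 -0.80 and -0.71, and Sqstm1 -0.79. Gla and Ctsa were at -0.85 and -0.71, Atp6v0b and Slc36a1 at -0.52 and -0.42, and Atg9b and Vps11, a tethering subunit of vesicle fusion, at -0.72 and -0.37. The membrane protein count was 3 without any of the 3 DPI 72 h libraries, and the autophagy count 1 without DPI 72 h replicate 3. Cd68, a lysosomal glycoprotein counted above as a macrophage marker, had 4.33, 4.19 and 2.42 CPM on average in control, 24 h and 72 h libraries.

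**Figure D4:**
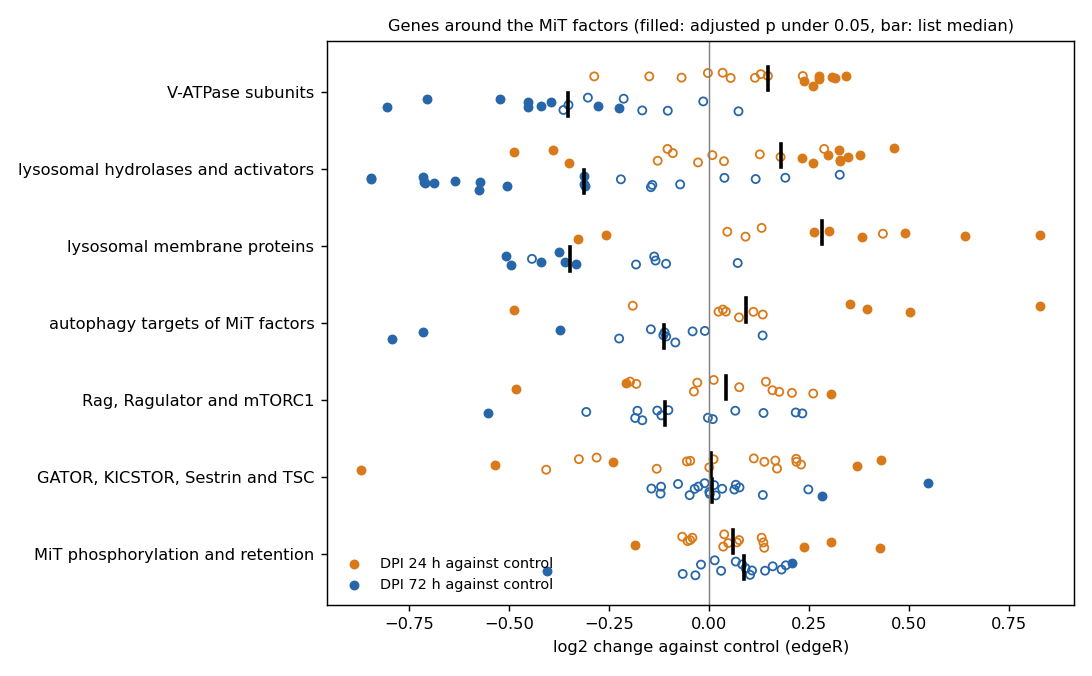
Log2 change against control of each gene (dot) in 7 lists around the MiT factors, at 24 h (orange) and 72 h (blue), filled where the edgeR adjusted p was under 0.05, with a black bar at the list median. Medians of the V-ATPase, hydrolase and membrane lists lie at 0.15 to 0.28 at 24 h and at -0.31 to -0.35 at 72 h, while the lists of upstream regulators stay within 0.11 of 0.

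The E-box motif was also counted in these lists. TCACGTG or its reverse complement was found before the start of 7 of 15 hydrolase and activator genes with a window, 5 of 10 membrane protein genes, 2 of 12 V-ATPase genes and 1 of 9 autophagy genes. In the lists of upstream regulators described below, it was found in 4 of 12 genes of Rags, Ragulator and mTORC1, 2 of 13 of MiT phosphorylation and retention and 0 of 17 of the nutrient sensors. It was found in 968 of all 27025 genes with a window, or 3.58%. The counts are for the genes matched by symbol and carry no test. The target lists were drawn from genes that MiT factors are known to act on. Those factors read this motif, so its share in these lists is no independent result.

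Upstream of the MiT factors, genes changed in both directions, as they did over all tested genes. The shares of all tested genes that passed were 12.4% higher and 12.3% lower at 24 h, and 10.1% higher and 11.2% lower at 72 h against 24 h. At 24 h the shares higher and lower were 7.14% and 14.3% for Rags, Ragulator and mTORC1. They were 10% and 15% for the nutrient sensors and 18.75% and 6.25% for MiT phosphorylation and retention. In lists this short these shares are not told apart from those of all genes. Of 14 genes of the other Rags, the Ragulator scaffold and mTORC1, 1 rose and 2 fell at 24 h, and 1 was higher and 4 lower at 72 h than at 24 h. Lamtor1 and Lamtor2, both Ragulator subunits, went apart at 24 h, at 0.30 and -0.48 on the log2 scale (SE 0.08 and 0.08, edgeR adjusted p = 0.022 and 0.0020). Rraga, the RagA gene, changed by -0.21 at 24 h. Rragb, the RagB gene, had 13.4 ± 1.14 CPM in controls and 13.1 ± 1.58 at 24 h, and was lower at 72 h, at 9.15 ± 0.532 CPM (SD, n = 3). Its log2 change from 24 h was -0.52 ± 0.12 (SE, edgeR adjusted p = 0.012). Lamtor1 and Lamtor3, a further Ragulator subunit, changed by -0.41 and -0.39 from 24 h to 72 h.

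Of 20 genes of the GATOR, KICSTOR, Sestrin, CASTOR and TSC proteins, which relay nutrient signals to mTORC1, 2 rose and 3 fell at 24 h. Sesn2, a leucine sensor, went from 80.0 ± 4.88 in controls to 43.7 ± 0.157 at 24 h and 97.3 ± 7.43 CPM at 72 h (SD, n = 3). Its log2 change was -0.87 ± 0.07 at 24 h (SE, edgeR adjusted p = 1.36e-05) and 1.15 ± 0.07 at 72 h against 24 h (adjusted p = 1.97e-06). Castor1 and Castor2, genes of the CASTOR proteins, changed by -0.54 and 0.43 at 24 h. Tsc1, a subunit of the TSC complex, and Itfg2, of KICSTOR, had log2 changes of -0.51 and -0.34 from 24 h to 72 h. Sesn3, a paralogue of Sesn2, was 0.55 above control at 72 h, without a test.

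Of 16 genes that act on MiT phosphorylation, nuclear export or cytoplasmic retention, 3 rose and 1 fell at 24 h. Rcan1, an inhibitor of the phosphatase calcineurin that dephosphorylates TFEB, rose by 0.43, the kinase gene Akt1 by 0.31 and Ywhab, a 14-3-3 protein, by 0.24 on the log2 scale. The gene that fell, Ppp3ca, a calcineurin catalytic subunit, changed by -0.19 (edgeR adjusted p = 0.04998), and the call was lost without any single library other than control replicate 2. It was higher at 72 h than at 24 h, by 0.38 (adjusted p = 0.0014). Mcoln1, the lysosomal calcium channel that activates calcineurin and also a MiT target, went from 112 ± 6.94 CPM at 24 h to 76.6 ± 6.39 (SD, n = 3) at 72 h. Its log2 change was -0.54 ± 0.08 (SE, adjusted p = 5.93e-04 in edgeR). Rcan1 changed by -0.46 from 24 h to 72 h. At 72 h, without a test, Mcoln1 was at -0.41, Ywhag, another 14-3-3 gene, at 0.21, Sesn2 at 0.28 and Rragb at -0.55 against control. These small counts rested on single libraries. With each left out in turn, between 0 and 4 genes of the Rag list, 0 and 4 of the sensor list and 3 and 6 of the phosphorylation list rose at 24 h, the most without control replicate 2. None of the Rag or sensor genes rose without DPI 24 h replicate 1 or 3, nor any Rag gene without control replicate 3. Of Rag genes 2 were lower at 72 h than at 24 h without DPI 24 h replicate 1 or 3, in place of 4.

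Partners of the GPNMB protein were higher than control at both times. Cd44, a receptor reported to bind GPNMB, went from 179 ± 5.53 to 276 ± 11.4 CPM at 24 h and stood at 256 ± 6.77 at 72 h (SD, n = 3). Its log2 change at 24 h was 0.62 ± 0.06 (SE, edgeR adjusted p = 2.93e-05), and at 72 h the level was 0.51 above control, without a test. Sdc4, the syndecan that binds GPNMB on T cells, rose by 0.40 at 24 h, and Adam10, a protease that sheds GPNMB, by 0.25. Against control at 72 h they were at 0.20 and 0.29, without a test, and Sdc4 changed by -0.20 from 24 h to 72 h (edgeR adjusted p = 0.019), a call lost without any DPI 24 h library or DPI 72 h replicate 2 or 3. Pmel, the melanosomal paralogue of Gpnmb and also counted as a melanocyte marker, had 0.931, 0.634 and 0.849 CPM on average in the 3 groups, and no change passed.

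The 6 genes whose log2 CPM over the 9 libraries lay closest to Gpnmb, of 9934 compared, were C3, Ccn5, Il1rn, Apol9b, Gvin1 and Npr1. Closeness is the Euclidean distance after each gene was centred on its mean, from 1.21 for C3 to 1.77 for Npr1 in log2 units, and Pearson r with Gpnmb ran from 0.95 to 0.99. The points share libraries and 3 groups, so r is a description. C3, the complement component, had mean levels of 22.9, 28.7 and 5.25 CPM in control, 24 h and 72 h libraries, and Ccn5, a matricellular protein gene, 9.12, 11.7 and 2.39. Il1rn, the interleukin-1 receptor antagonist, had 15.2, 32.1 and 5.36 CPM, and Npr1, a natriuretic peptide receptor, 4.78, 8.47 and 1.87. Apol9b and Gvin1 have near-identical relatives, so their counts are uncertain. Ranked by Pearson r alone, the 6 nearest were Lamp1, Car13, Ccn5, Cxcl10, Lamp2 and Uap1l1, with Ccn5 the 1 gene shared.

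For Rragd the 3 closest genes were March9, Tap1 and Agrn, at distances of 1.15, 1.24 and 1.29 and r of 0.87, 0.83 and 0.84 over the 9 libraries. Agrn, the proteoglycan agrin, had 103 CPM in controls, 50.8 at 24 h and 63.6 at 72 h, on average. Tap1, the peptide transporter of antigen presentation, had 41.1, 18.4 and 14.7 CPM. None of the 3 was shared with the 3 nearest by Pearson r alone.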

How the data were processed

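Counts in 9 RNA-seq libraries were analysed. Per the labels' protocols, RNA was column-extracted, made into TruSeq libraries and sequenced on a HiSeq instrument. Build GRCm38 and the tools cutadapt, Trim Galore, RSEM, STAR, edgeR and limma are listed in the submitters' processing notes. The annotation release and strand setting were not stated there, so antisense and overlapping genes cannot be told apart. The authors deposited whole-number counts per Ensembl gene. Their second table, named as normalized, held 159498 values, all equal to those counts, and gave no other unit. Symbols, coordinates and lengths came from GENCODE vM21 (GRCm38), and 105 IDs without a symbol held 0.0090% of counts.

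Here, filterByExpr by group (minimum count 10) kept 14088 genes, with at least 99.9% of each library's counts. TMM factors ran from 0.98 to 1.02. The quasi-likelihood model of edgeR 4.0.16 (R 4.3.3, two-sided glmQLFTest after glmQLFit) had a mean for each group and all 9 libraries. P-values were Benjamini-Hochberg adjusted over all genes, threshold 0.05. The SE is the log2 change over the root of F, and intervals are 95%. The fit of 24 h against control was tested on simulated counts. It recovered 56.7% of changes of 1.5-fold, 71.6% of 2-fold and 92.4% of 4-fold. Of its calls, 6.37% were genes left unchanged. Changes under 1.5-fold were not simulated. Library pairs within groups differed beyond counting noise (chi-square per degree of freedom 3.62 to 31.3). With 3 against 3, an exact permutation test cannot go below p = 0.1.

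The 9 genes and all lists were chosen with earlier results of these data known, and motifs after the files were seen. Of each list, up to 3 genes with the largest change among those called were named per comparison (some are not reported here), and genes close to Gpnmb (6) and Rragd (3) by distance, at a mean of at least 5 CPM, leaving out predicted genes. Alternatives were RLE and total count scaling, no filter, DESeq2 1.42.0, limma voom 3.58.1, leaving out each library, a block for replicate number, the 6 compared libraries alone, another length and Pearson r.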

Additional observations from a re-analysis of the deposited data

Results flagged for a closer look

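The response at 24 h and at 72 h differed for 4 genes by the direct test of 72 h against 24 h in edgeR, with every 72 h library below every 24 h library. The log2 differences were -0.99 for Flcn (adjusted p = 1.96e-05), -0.65 for Fnip1 (7.13e-04), -0.54 for Fnip2 (0.0025) and -0.42 for Rragc (2.65e-04). Over the alternatives run, the largest adjusted p of these genes was 2.94e-04, 0.0057, 0.016 and 0.0033 in the same order.

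Gpnmb lay above every control in all 3 libraries at 24 h and below every control in all 3 at 72 h, with a log2 difference of -3.15 between the times. This difference was not tested, because the 72 h libraries were used to pick the gene.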

How the results depend on the processing

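Of 384 recomputed log2 changes of the 8 genes other than Gpnmb, 362 kept their direction and side of the threshold or, untested, stayed within the replicate spread, 16 lost a call (all at 24 h, for Flcn, Rragd, Fnip1 and Fnip2), 3 tested changes turned sign and 3 untested changes at 72 h moved by more than the replicate spread. Tfe3 at 72 h, 0.01 with all libraries, was -0.03 under total count scaling and -0.01 without control replicate 3, the latter counted among the 362 as within the spread. Among tested changes the sign turned for Tfeb at 24 h without control replicate 2 (0.10, and as low as -0.28 with another library left out) and for Rragd at 72 h against 24 h without DPI 24 h replicate 3 (-0.04) or DPI 72 h replicate 1 (-0.30, and up to 0.42 with another left out), none of them called. The cause was not tested. With each library left out in turn, between 3 and 6 of the 9 genes were called at 24 h, and between 2 and 4 at 72 h (4 without control replicate 2). Flcn, Fnip1, Fnip2 and Rragc were called at 72 h against 24 h each time. Over all genes, calls ranged from 2351 to 4419 at 24 h (3478 with all libraries), from 736 to 1965 at 72 h (1206) and from 1953 to 4729 at 72 h against 24 h (3001), the highest each time without control replicate 2. Fitting only the 6 libraries compared gave 774 at 72 h and 4660 at 72 h against 24 h. Same-numbered libraries did not deviate together (r from -0.09 to 0.0027 over 9 pairs), so the numbers do not pair them. A replicate block gave 3000, 911 and 2533 calls and called as many of the 9 genes at 24 h, 6. Rragd had the fewest counts of the 9 genes, at 9 to 39 per library. Its 24 h call was lost in 3 alternatives, each with a different library left out. Flcn lost its 24 h call in 9 alternatives.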
